A study of Mus musculus with 14 samples.

Results

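The genes described here are 35 named genes of kidney tubule injury and repair, listed by name. No measured value is part of the rule, but the list was drawn up with earlier results of these data known. All 35 were found among the 49943 genes of the RefSeq annotation of mouse assembly GRCm38.p6, and 33 of them passed the filter described below and were tested, as were 21746 genes in all. Histone H3 crotonylated at lysine 9 (H3K9cr) and histone H3 acetylated at the same lysine (H3K9ac) were mapped by ChIP-seq, in which an antibody against the mark pulls down chromatin and the recovered DNA is sequenced. The samples were whole mouse kidneys of 4 kinds: control kidneys of wild-type (WT) mice, control kidneys of ACSS2-/- mice, UUO kidneys of WT mice and UUO kidneys of ACSS2-/- mice. UUO, unilateral ureteric obstruction, is a surgical ligation of the left ureter that leads to tubule atrophy and fibrosis, and the methods describe a sham operation for control animals. ACSS2-/- mice lack ACSS2, an enzyme that makes acetyl-CoA and crotonyl-CoA, in every cell and not in the tubule alone. The methods describe young adult C57BL/6J mice, and the labels give neither an age, a sex nor a time after the operation. H3K9cr had 2 libraries in each of the 4 groups, and H3K9ac had 2 libraries in each UUO group and 1, replicate 2, in each control group. Nothing in the labels says whether replicates came from separate mice. In each H3K9cr group, the 4 Y-linked genes Ddx3y, Eif2s3y, Uty and Kdm5d all had peaks, defined below, in 1 replicate and none in the other. The same held for ACSS2-/- UUO H3K9ac, so the replicates of these groups differed in sex and came from separate mice. Both WT UUO H3K9ac libraries had none. The p-values measure only the spread between these libraries, which in those groups includes the difference in sex. The study describes both marks as mapped in the same samples, while the fit treats all 14 libraries as independent.

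After damage, surviving tubule cells lose their transport function and switch on a known set of genes. They shed or secrete proteins that are measured in urine as signs of injury, such as KIM-1 and NGAL, they change their keratins and adhesion molecules, and they release ligands of the EGF receptor. Cells that fail to recover keep expressing VCAM-1 and related surface proteins, while SOX9 marks cells that are regenerating. Acetylation and crotonylation of H3K9 both lie around the starts of active genes.

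The deposited lists give the position of each peak, a stretch where the mark exceeded the local background, and no height or read count, so a gene was measured by its end cover. End cover is the number of bases under peaks within 3 kb of either end of the gene, in kb, and depends on how wide and how many the peaks there are. The windows of 15 of the 35 genes also reach other annotated genes, among them those of Lcn2, Krt7, Krt8, Prom1, S100a6 and Gdf15. End cover does not tell which gene a peak there belongs to. A gene was tested when at least 2 of the 14 libraries had a peak there. A difference was called at an adjusted p under 0.05 in a linear model fitted with limma to all 21746 genes, with Benjamini-Hochberg adjustment over all of them. Values below are given for replicate 1 and then replicate 2 of each group, and levels are not compared between genes, whose windows differ. In whole kidney, fewer cells of a type and less of a mark per cell cannot be told apart.

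H3K9cr lists held 32945 to 45014 peaks in control and 27530 to 36734 in UUO kidneys, and H3K9ac lists 25585 to 32760 and 15988 to 24571, and the read depth behind them is unknown. The median difference of all tested genes between UUO and control was below 0, at -0.167 kb for H3K9cr and -0.577 kb for H3K9ac, and became 0.224 and 0.23 kb once each library was scaled to its total covered length. The scaling changed 557 genes higher and 2580 lower for H3K9cr to 698 and 727, and 30 higher and 7039 lower for H3K9ac to 2362 and 982. In 4 libraries the peak names carried another mouse number than the label, 3 of them in the ACSS2-/- UUO groups and 1 in the WT UUO H3K9cr group. Which libraries of the 2 marks share a kidney therefore cannot be read from the labels alone. By label number, replicate 1 of WT UUO and of ACSS2-/- UUO had peaks at 4 Y-linked genes in H3K9cr and at 0 in H3K9ac. Replicate 2 of ACSS2-/- UUO had 0 and 4. Wherever both marks of a group of mice carried the same peak name number, these counts matched. Antibody catalogue numbers in the labels also change from group to group, from 539 to 542 for H3K9cr and from 39017 to 39020 for H3K9ac. The methods name 1 supplier for each mark, and whether the antibodies truly differed is not known. If they did, antibody and group cannot be told apart. Acss2 itself had peaks at its ends in all 14 libraries, 0.76 to 2.82 kb of cover, and peak lists of a histone mark do not check the deletion. Among markers of other cells, 9 of 10 proximal tubule genes had less H3K9cr in UUO, against 11.9% of all genes. The summed end cover of the 10 was 23.5 to 41 kb in control and 1.29 to 8.5 kb in UUO libraries. Of 10 leukocyte genes 6 had more (Ptprc, Tyrobp, Lyz2, Cd3e, Cd74 and Laptm5), against 2.56% of all genes. The sums of the 10 were 2.12 to 4.44 kb in control and 11.4 to 23.9 kb in UUO libraries. Ptprc, Adgre1, Itgam, Tyrobp, Lyz2 and Cd3e had no peak in any H3K9cr control library, and Itgam had none in UUO either. For 8 stroma genes the sums were 1.58 to 5.48 and 2.48 to 11.7 kb, for 8 endothelial genes 9.82 to 19.7 and 5.42 to 11.2 kb, and for 8 distal nephron genes 10.6 to 21.3 and 7.13 to 11.7 kb. The part of these shifts in the results at the injury genes was not tested.

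Peaks were present at most of the injury genes in every sample. An end peak of one mark or the other was found in all 14 libraries at 24 of the 35 genes (68.6%), against 62.3% of the tested genes. The exceptions were Havcr1, Krt19, Krt20, Vcam1, Sox9, Cd44, Clu, Cdh6, Areg, Ereg and Tgfa. Between 28 and 30 of the 35 genes had an H3K9cr peak in a control library and between 30 and 32 in a UUO library. The number of H3K9cr peaks at the ends of the 35 genes was 41 to 45 per control library and 49 to 52 per UUO library. These ranges did not overlap, whereas the peaks per tested gene over all genes, 1.18 to 1.34 in control and 1.12 to 1.27 in UUO libraries, did. The summed H3K9cr end cover of the 35 genes also overlapped, at 58.4 to 83.4 kb in control and 59.6 to 87.6 kb in UUO libraries.

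**Figure D1:**
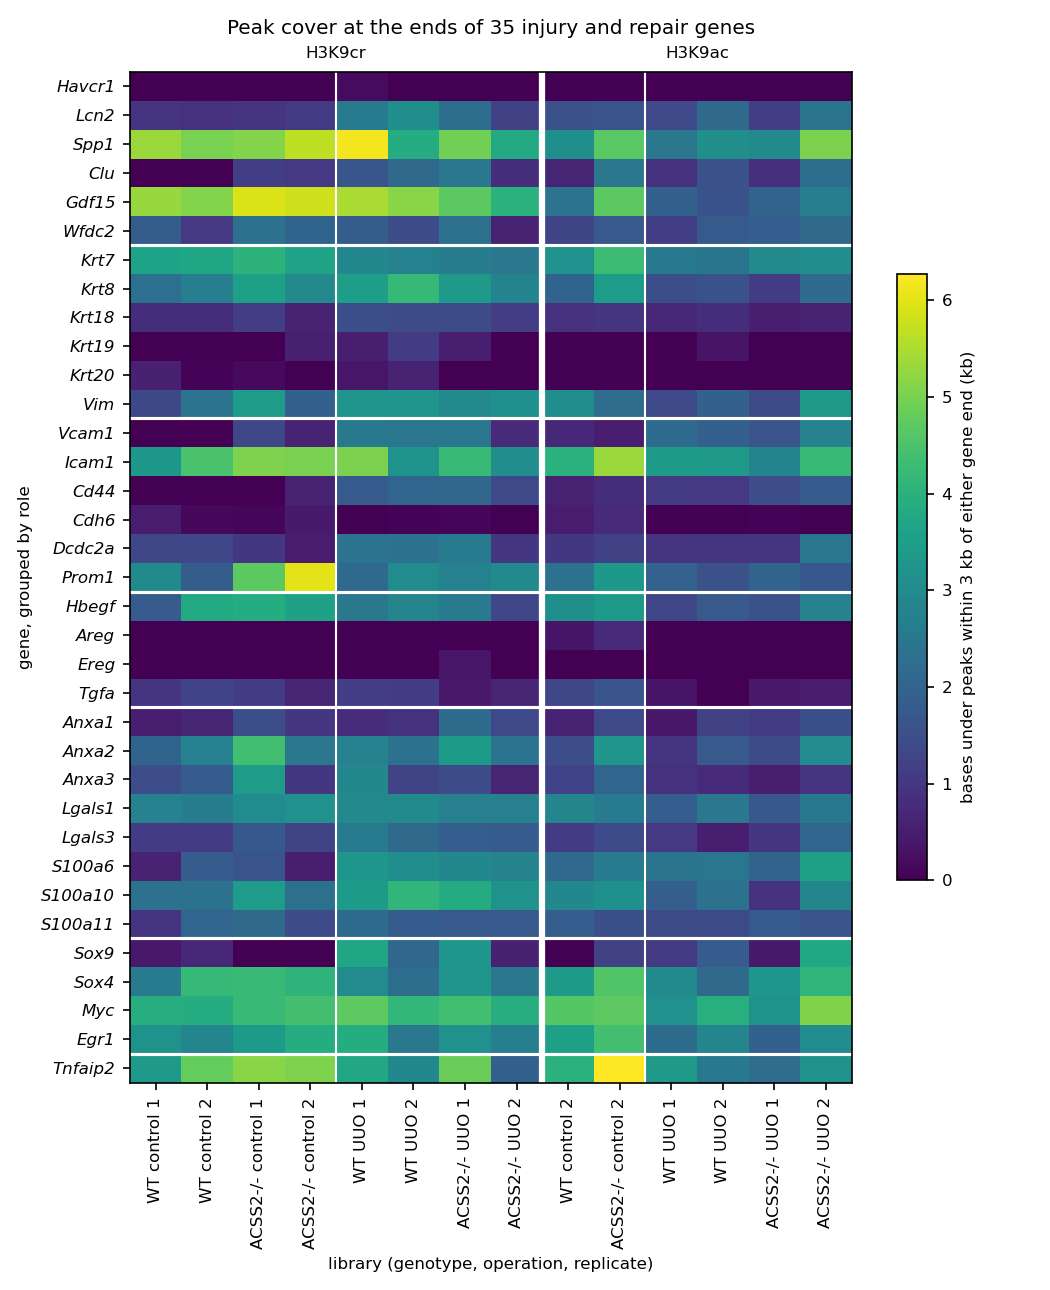
End cover (kb of bases under peaks within 3 kb of either gene end, colour) of the 35 injury and repair genes (vertical axis, grouped by role) in the 14 libraries (horizontal axis), H3K9cr left and H3K9ac right, with control before UUO. Cd44 and Vcam1 are at 0 in the WT H3K9cr controls and between 1.78 and 2.54 kb in the WT H3K9cr UUO libraries, and Areg has cover in the 2 H3K9ac control libraries only.

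Which injury genes carried more or less H3K9cr in obstructed kidneys was asked by comparing the 4 UUO with the 4 control libraries over both genotypes. H3K9cr cover rose at 5 of the 33 tested genes, Cd44, S100a6, Lcn2, Vcam1 and Krt18, and fell at 1, Krt7. Over all tested genes 2.56% rose and 11.9% fell. The median difference of the injury genes was 0.063 kb against -0.167 kb for all genes, and 17 of the 33 were above 0, 15 below and Areg at 0, while 31% of all tested genes were above 0. At an unadjusted p under 0.05 there were 14 of the 33, against 28.6% of all genes. Scaled to the total covered length, 9 of the 33 rose, among them the 5 named above, and none fell. The end cover of the UUO libraries lay wholly above that of the control libraries at 4 genes, Lcn2, Cd44, Lgals3 and S100a6 (2.29% of all genes), and wholly below it at 2, Krt7 and Cdh6 (13.3%). Leaving out single libraries reduced the 6 calls to 2 without WT control 1, ACSS2-/- control 2, WT UUO 1 or WT UUO 2, and to 3 without WT control 2 or ACSS2-/- UUO 1, and with the 6 H3K9cr libraries whose peak names match their labels there were 2, Cd44 and Krt7.

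**Figure D2:**
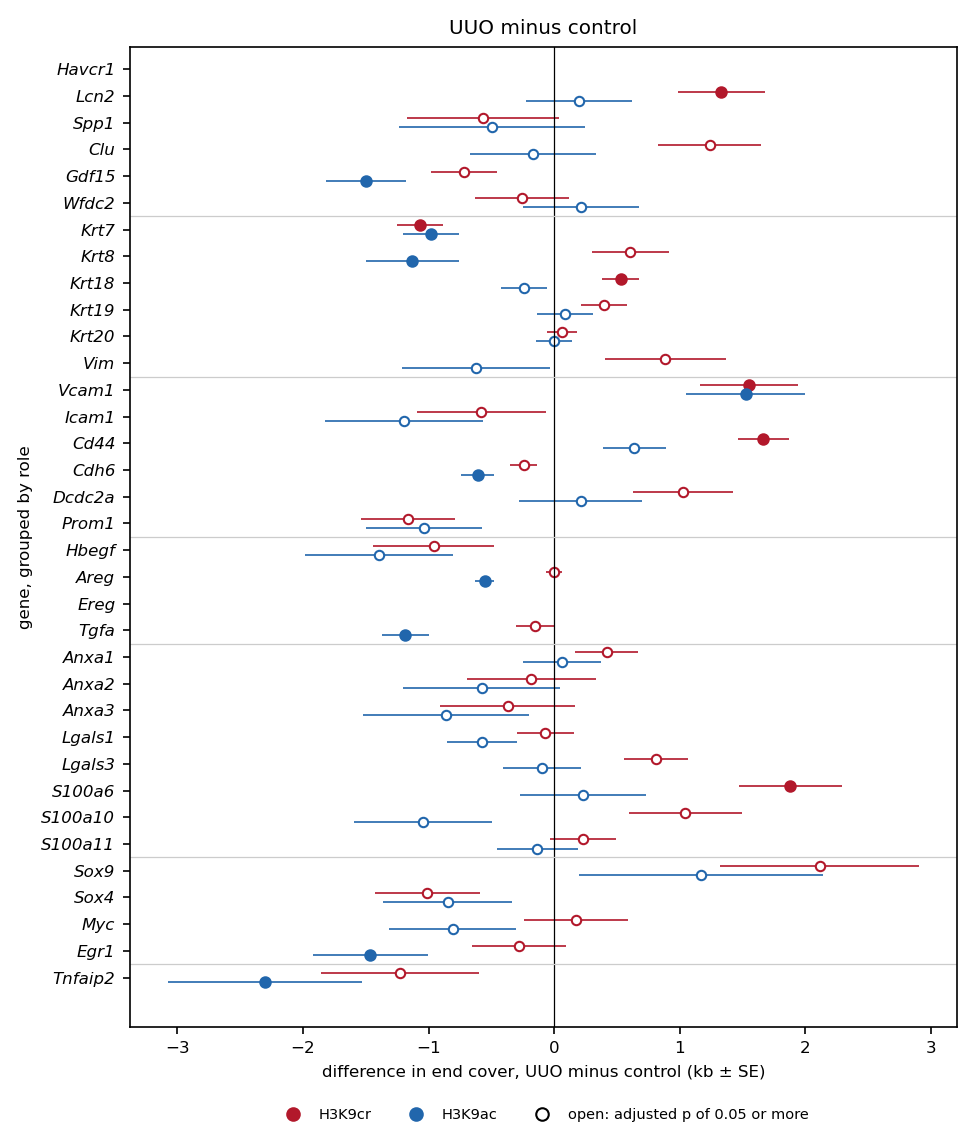
Difference in end cover between UUO and control kidneys (kb, horizontal axis, bars are the standard error of the limma fit) for the 35 genes by role (vertical axis), red H3K9cr and blue H3K9ac, with filled circles for an adjusted p under 0.05 and no point for Havcr1 and Ereg, which were not tested. Most blue circles lie left of 0, and those of Krt7, Krt8, Tnfaip2, Egr1 and Gdf15 lie right of 0 when libraries are scaled to their total covered length.

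The secreted and shed injury markers were led by Lcn2 (gene ID 16819), which encodes NGAL, an iron-scavenging protein that injured tubules release into urine. Its H3K9cr end cover was 0.945 and 0.889 kb in the WT control libraries and 0.953 and 1.08 kb in the ACSS2-/- control libraries, against 2.58 and 3.13 kb in the WT UUO and 2.26 and 1.22 kb in the ACSS2-/- UUO libraries. Every UUO library exceeded every control library, with the lowest, ACSS2-/- UUO 2, close to the controls. The difference was 1.33 ± 0.343 kb (SE), with an adjusted p of 0.0338 (limma). The adjusted p lay between 0.0552 and 0.115 when any 1 of the H3K9cr libraries other than ACSS2-/- UUO 2 was left out.

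The peaks at Lcn2 also differed in where they lay. The call was not held for cover of the gene body, and the promoter rule used here was added after seeing the data. In the control libraries the H3K9cr peak within the window lay about 5 to 7 kb downstream of the Lcn2 start, where the annotation also holds 1110008P14Rik. A peak across or just after the start itself was found in all 4 H3K9cr UUO libraries and in none of the 4 controls. Within the gene, H3K9cr peaks covered 0 and 0 kb in the WT control libraries and 0 and 0 kb in the ACSS2-/- control libraries, against 1.16 and 1.25 kb in the WT UUO and 1.1 and 0.384 kb in the ACSS2-/- UUO libraries. Of the 32851 annotated promoter windows (250 bases before to 50 after a start), 68 (0.207%) had a peak in all 4 UUO and no control H3K9cr library, and Lcn2 was the single injury gene among them. The covered part of its 300 bases was 300 and 182 bases in the WT UUO and 46 and 46 bases in the ACSS2-/- UUO libraries. H3K9ac reached this promoter in 2 of the 4 UUO libraries, with 150 bases in WT UUO 1 and 71 in ACSS2-/- UUO 2, and in neither control library. Within the gene H3K9ac had a peak in 3 of the 4 UUO libraries and in neither control library. Conversely, 97 promoters (0.295%) had a peak in all control and no UUO H3K9cr library, and none of them was at an injury gene.

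Havcr1 (gene ID 171283) encodes KIM-1, the receptor by which injured proximal tubule cells take up dead cells and whose shed part is a urine marker of injury. Its end cover was 0 in 13 libraries and 0.173 kb in WT UUO H3K9cr 1, so it was not tested. Its peaks lay inside the gene, around the most downstream of its 3 annotated starts. Over the gene, H3K9cr peaks covered 0 and 0 kb in the WT control libraries and 0 and 0 kb in the ACSS2-/- control libraries, against 3.2 and 1.02 kb in the WT UUO and 2.34 and 0 kb in the ACSS2-/- UUO libraries. No control library of either mark had a peak there, while 3 of the 4 H3K9cr UUO libraries and 1 H3K9ac UUO library, ACSS2-/- UUO 2 with 3.66 kb, did. The window of that start was covered over its whole 300 bases in these 4 libraries and over 0 bases in the other 10. The promoters of Lcn2 (chr2:32387690-32387989, minus strand) and of this Havcr1 start (chr11:46750918-46751217, plus strand) are shown because both carried peaks in UUO libraries alone. They come from RefSeq in GRCm38.p6, read 5′ to 3′ on the gene's strand, and capitals mark matches to the motifs named further on. The Havcr1 window holds 1, an AP-1 match that begins at base 11 after the start, and the Lcn2 window holds none.
Lcn2: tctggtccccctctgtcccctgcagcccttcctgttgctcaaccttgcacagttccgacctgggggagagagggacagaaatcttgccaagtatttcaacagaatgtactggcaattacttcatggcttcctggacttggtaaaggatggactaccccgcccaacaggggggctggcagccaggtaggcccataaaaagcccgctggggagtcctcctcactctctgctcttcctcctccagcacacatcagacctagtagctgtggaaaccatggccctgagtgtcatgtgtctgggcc
Havcr1: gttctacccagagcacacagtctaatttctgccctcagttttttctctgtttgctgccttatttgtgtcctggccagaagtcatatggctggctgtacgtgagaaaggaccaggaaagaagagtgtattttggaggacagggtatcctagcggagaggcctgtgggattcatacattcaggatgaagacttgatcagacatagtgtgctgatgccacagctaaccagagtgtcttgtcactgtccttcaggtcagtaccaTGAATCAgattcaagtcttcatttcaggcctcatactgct

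**Figure D3:**
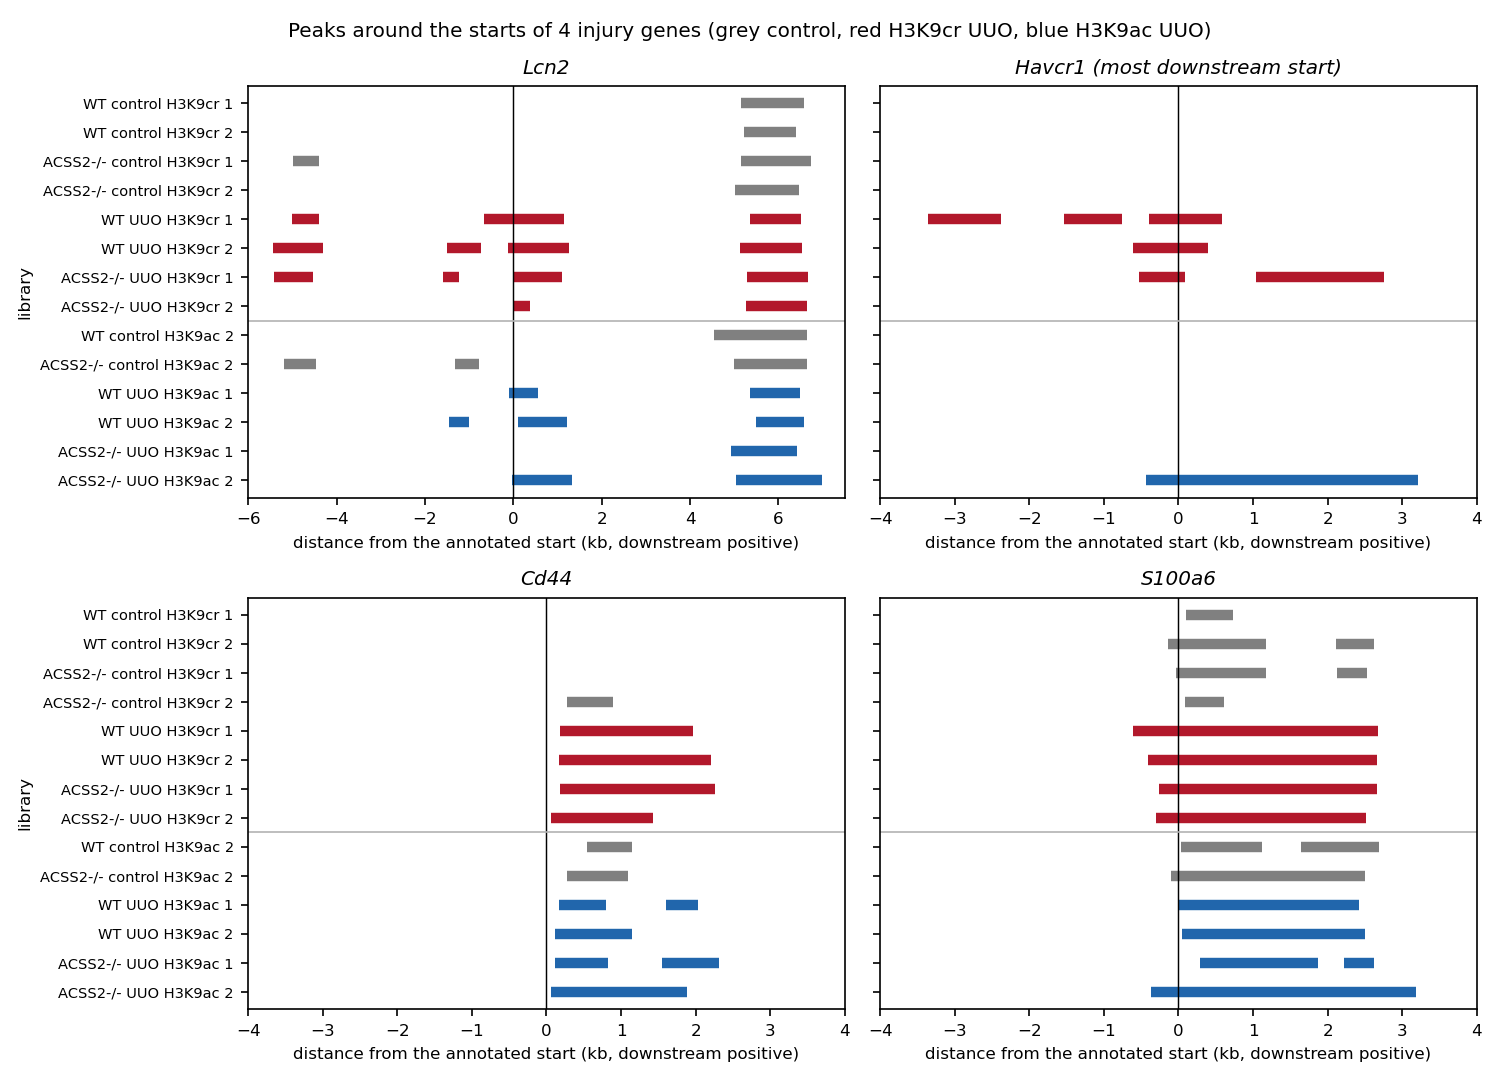
Peaks (bars) in each of the 14 libraries (vertical axis) by distance from the annotated start (kb, downstream positive) at Lcn2, the most downstream Havcr1 start, Cd44 and S100a6, in grey for control, red for H3K9cr UUO and blue for H3K9ac UUO. At Lcn2 and Havcr1 no grey bar lies on the start, at Cd44 every bar begins after it, and at S100a6 the H3K9cr bars are longer in UUO.

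The other secreted genes had peaks throughout. Spp1, which encodes osteopontin, a secreted matrix protein made by stressed tubules, had an H3K9cr end cover of 5.33 and 5.01 kb in the WT control libraries and 5.1 and 5.67 kb in the ACSS2-/- control libraries, against 6.17 and 3.88 kb in the WT UUO and 4.93 and 3.84 kb in the ACSS2-/- UUO libraries. The groups overlapped and the difference was -0.569 ± 0.604 kb (SE), adjusted p 0.587, which turned above 0 when libraries were scaled to their total (0.707 kb). Gdf15 encodes a stress hormone of the TGF-beta family. Its H3K9cr end cover was 5.31 and 5.1 kb in the WT control libraries and 5.95 and 5.82 kb in the ACSS2-/- control libraries, against 5.47 and 5.15 kb in the WT UUO and 4.69 and 4.01 kb in the ACSS2-/- UUO libraries, and the difference was -0.716 ± 0.262 kb (SE), adjusted p 0.106. Control and UUO overlapped in the WT libraries, and in the ACSS2-/- libraries UUO was below control. Clu, the secreted chaperone clusterin, had no peak in the WT controls, and its mean cover was 0.553 kb (SD 0.64, n = 4) in control and 1.79 kb (SD 0.732, n = 4) in UUO, with an adjusted p of 0.0786. Wfdc2, the protease inhibitor HE4, had 1.81 kb (SD 0.555, n = 4) and 1.56 kb (SD 0.737, n = 4).

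Among the 6 genes of keratins and vimentin, the filament proteins that epithelial cells rearrange under stress, H3K9cr rose at Krt18 and fell at Krt7. Krt18 (gene ID 16668) pairs with keratin 8 in simple epithelia, and its H3K9cr end cover was 0.832 and 0.814 kb in the WT control libraries and 1.15 and 0.628 kb in the ACSS2-/- control libraries, against 1.5 and 1.45 kb in the WT UUO and 1.46 and 1.13 kb in the ACSS2-/- UUO libraries. The groups overlapped in a single pair, ACSS2-/- control 1 above ACSS2-/- UUO 2. The difference was 0.528 ± 0.148 kb (SE), adjusted p 0.0465, and part of it lay away from the start, where 3 UUO libraries and 1 control had a further peak between -3102 and -2093 bases from the start. Within 1 kb of the gene ends the difference was 0.005 kb, and the adjusted p was 0.05 or more without any 1 of 11 libraries, all but ACSS2-/- control H3K9cr 1 and the H3K9ac controls, with a highest value of 0.127.

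Krt7 (gene ID 110310), a keratin of collecting duct and urothelium, went the other way. Its H3K9cr end cover was 3.64 and 3.72 kb in the WT control libraries and 4.06 and 3.6 kb in the ACSS2-/- control libraries, against 2.9 and 2.74 kb in the WT UUO and 2.62 and 2.48 kb in the ACSS2-/- UUO libraries. All 4 UUO libraries were below all 4 controls, with a difference of -1.07 ± 0.183 kb (SE), adjusted p 0.00643, and the call held without any 1 of the 14 libraries. The start stayed covered in every library, and the peak across it was 3169 to 4055 bases long in the H3K9cr controls and 2109 to 2904 bases in UUO. Scaled to the total covered length, the difference was -0.0872 kb with an adjusted p of 0.921, and within 1 kb of the gene ends it was -0.0835 kb with an adjusted p of 0.582.

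Krt8, the partner of keratin 18, had an H3K9cr end cover of 2.29 and 2.68 kb in the WT control libraries and 3.57 and 2.95 kb in the ACSS2-/- control libraries, against 3.52 and 4.2 kb in the WT UUO and 3.37 and 2.82 kb in the ACSS2-/- UUO libraries. The groups overlapped, with a difference of 0.607 ± 0.305 kb (SE), adjusted p 0.234. Krt20, a keratin that appears in damaged tubules, was close to bare, with 0.565 and 0.052 kb in the WT control libraries and 0.15 and 0 kb in the ACSS2-/- control libraries, against 0.387 and 0.632 kb in the WT UUO and 0 and 0 kb in the ACSS2-/- UUO libraries. Its difference was 0.063 ± 0.119 kb (SE), adjusted p 0.783, and it turned to -0.0653 kb without WT control 2. The Krt20 promoter itself had a peak in WT UUO 1 alone, over 167 of 300 bases. Krt19 had an H3K9cr end peak in 1 of 4 controls and 3 of 4 UUO libraries. Vim, which encodes vimentin, the filament of dedifferentiated and mesenchymal cells, had 2.29 kb (SD 0.89, n = 4) in control and 3.17 kb (SD 0.136, n = 4) in UUO, adjusted p 0.269. The Krt18 (chr15:102027966-102028265, plus strand) and Krt7 (chr15:101412153-101412452, plus strand) promoters are shown as those of the keratins whose H3K9cr end cover rose and fell. Over the 300 bases of Krt18 themselves H3K9cr did not rise. It covered 300 and 300 bases in the WT and 202 and 284 in the ACSS2-/- control libraries. In UUO it covered 230 and 300 in the WT and 12 and 63 in the ACSS2-/- libraries. All 300 bases of Krt7 were covered in every library. In capitals is an NF-kB match that begins 47 bases before the Krt18 start, and Krt7 has no match.
Krt18: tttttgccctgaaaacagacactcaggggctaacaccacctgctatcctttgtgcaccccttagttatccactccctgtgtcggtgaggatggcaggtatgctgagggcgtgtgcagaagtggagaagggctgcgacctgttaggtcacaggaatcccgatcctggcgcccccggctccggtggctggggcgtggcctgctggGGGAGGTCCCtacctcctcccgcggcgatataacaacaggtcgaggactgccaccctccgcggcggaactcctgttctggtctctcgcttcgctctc
Krt7: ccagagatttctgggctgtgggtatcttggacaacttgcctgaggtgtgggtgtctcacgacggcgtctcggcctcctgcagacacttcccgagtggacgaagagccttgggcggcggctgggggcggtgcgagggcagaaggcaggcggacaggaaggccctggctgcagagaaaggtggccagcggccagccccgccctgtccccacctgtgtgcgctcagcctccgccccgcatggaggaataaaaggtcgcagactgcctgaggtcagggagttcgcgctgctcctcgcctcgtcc

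The surface genes of the injured and progenitor-like tubule included the smallest adjusted p of the 33 tested genes. Cd44 (gene ID 12505), the hyaluronan receptor that appears on regenerating tubule cells and is abundant on leukocytes, had an H3K9cr end cover of 0 and 0 kb in the WT control libraries and 0 and 0.609 kb in the ACSS2-/- control libraries, against 1.78 and 2.04 kb in the WT UUO and 2.08 and 1.38 kb in the ACSS2-/- UUO libraries. In 3 of 4 controls there was no peak at all, and the lowest UUO library was above the highest control. The difference of 1.67 ± 0.203 kb (SE) had an adjusted p of 0.00145 and passed in all 14 alternative settings tried and without any 1 of the 14 libraries. The peak began 55 to 282 bases after the annotated start in the H3K9cr libraries. It ended 890 bases after the start in the single control with a peak and 1433 to 2262 bases after it in UUO.

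Vcam1 (gene ID 22329) encodes the adhesion molecule that marks tubule cells failing to recover, and also endothelium. Its H3K9cr end cover was 0 and 0 kb in the WT control libraries and 1.36 and 0.625 kb in the ACSS2-/- control libraries, against 2.54 and 2.46 kb in the WT UUO and 2.45 and 0.752 kb in the ACSS2-/- UUO libraries. The WT controls had no peak, and the groups overlapped because ACSS2-/- control 1 exceeded ACSS2-/- UUO 2. The difference was 1.55 ± 0.389 kb (SE), adjusted p 0.0305, and lay at an adjusted p of 0.0515 to 0.088 without any 1 of 9 libraries, namely the H3K9cr libraries other than ACSS2-/- UUO 2 and the WT UUO H3K9ac libraries. Of the marker lists given above, the median H3K9cr sum was higher in UUO for leukocytes and stroma. It was lower for endothelium, proximal tubule and distal nephron. The part of these shifts at Cd44 and Vcam1 was not tested.

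The remaining surface genes did not pass. Prom1 encodes CD133, a surface protein of scattered progenitor-like tubule cells, and its H3K9cr end cover was 3 and 1.85 kb in the WT control libraries and 4.7 and 6 kb in the ACSS2-/- control libraries, against 2.14 and 3.03 kb in the WT UUO and 2.75 and 2.98 kb in the ACSS2-/- UUO libraries. Both ACSS2-/- controls exceeded every other library. The difference between UUO and control was -1.16 ± 0.376 kb (SE), adjusted p 0.0734. Cdh6, a cadherin of the developing proximal tubule, had 0.476 and 0.125 kb in the WT control libraries and 0.103 and 0.445 kb in the ACSS2-/- control libraries, against 0 and 0.064 kb in the WT UUO and 0.086 and 0.023 kb in the ACSS2-/- UUO libraries. Every UUO library was below every control at Cdh6, with a difference of -0.244 ± 0.108 kb (SE), adjusted p 0.179. Dcdc2a, a doublecortin-domain gene expressed in injured proximal tubule, had 1.05 kb (SD 0.387, n = 4) in control and 2.07 kb (SD 0.731, n = 4) in UUO, adjusted p 0.127. Icam1, the leukocyte adhesion molecule, had 4.47 kb (SD 0.794, n = 4) and 3.89 kb (SD 0.929, n = 4).

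In the group of annexins, galectins and S100 proteins, 1 of 8 genes rose. S100a6 (gene ID 20200), a small calcium-binding protein of proliferating and stressed cells, had an H3K9cr end cover of 0.627 and 1.83 kb in the WT control libraries and 1.62 and 0.527 kb in the ACSS2-/- control libraries, against 3.3 and 3.08 kb in the WT UUO and 2.93 and 2.81 kb in the ACSS2-/- UUO libraries. The lowest UUO value was above the highest control value. The difference was 1.88 ± 0.41 kb (SE), adjusted p 0.0176, and the adjusted p was 0.0508 to 0.0603 without any 1 of WT control 1, ACSS2-/- control 2, WT UUO 1, WT UUO 2 and ACSS2-/- UUO 1. The gene is short and its window also holds S100a5, and the UUO peak ran unbroken across the start and the gene body. Over the promoter, 0, 193, 87 and 0 of 300 bases were covered in the 4 H3K9cr controls and all 300 in each of the 4 UUO libraries. Lgals3, the galectin made by macrophages and injured tubules, did not pass, with 1.31 kb (SD 0.294, n = 4) in control and 2.12 kb (SD 0.364, n = 4) in UUO, groups that did not overlap, and an adjusted p of 0.0659. S100a10 had 2.61 kb (SD 0.548, n = 4) and 3.65 kb (SD 0.412, n = 4), adjusted p 0.165. For Anxa1, Anxa2, Anxa3, Lgals1 and S100a11 the differences lay between -0.372 ± 0.538 kb (SE) and 0.418 ± 0.252 kb (SE). The Cd44 (chr2:102901616-102901915, minus strand) and S100a6 (chr3:90612644-90612943, plus strand) promoters follow, as those of the genes with the largest called differences in H3K9cr. Neither has a motif match, so no letter is in capitals, and no library of either mark had a peak on the 300 bases of Cd44.
Cd44: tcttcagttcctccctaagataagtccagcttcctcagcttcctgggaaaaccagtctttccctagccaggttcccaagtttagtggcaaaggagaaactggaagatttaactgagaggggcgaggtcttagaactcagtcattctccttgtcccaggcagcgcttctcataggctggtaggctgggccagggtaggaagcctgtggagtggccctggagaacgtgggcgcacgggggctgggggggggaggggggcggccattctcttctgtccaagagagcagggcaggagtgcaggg
S100a6: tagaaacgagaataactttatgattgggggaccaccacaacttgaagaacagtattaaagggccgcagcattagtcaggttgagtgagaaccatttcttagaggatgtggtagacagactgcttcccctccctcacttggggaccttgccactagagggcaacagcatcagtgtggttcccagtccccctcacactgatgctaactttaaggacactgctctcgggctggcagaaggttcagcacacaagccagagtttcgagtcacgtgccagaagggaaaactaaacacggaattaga

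**Figure D4:**
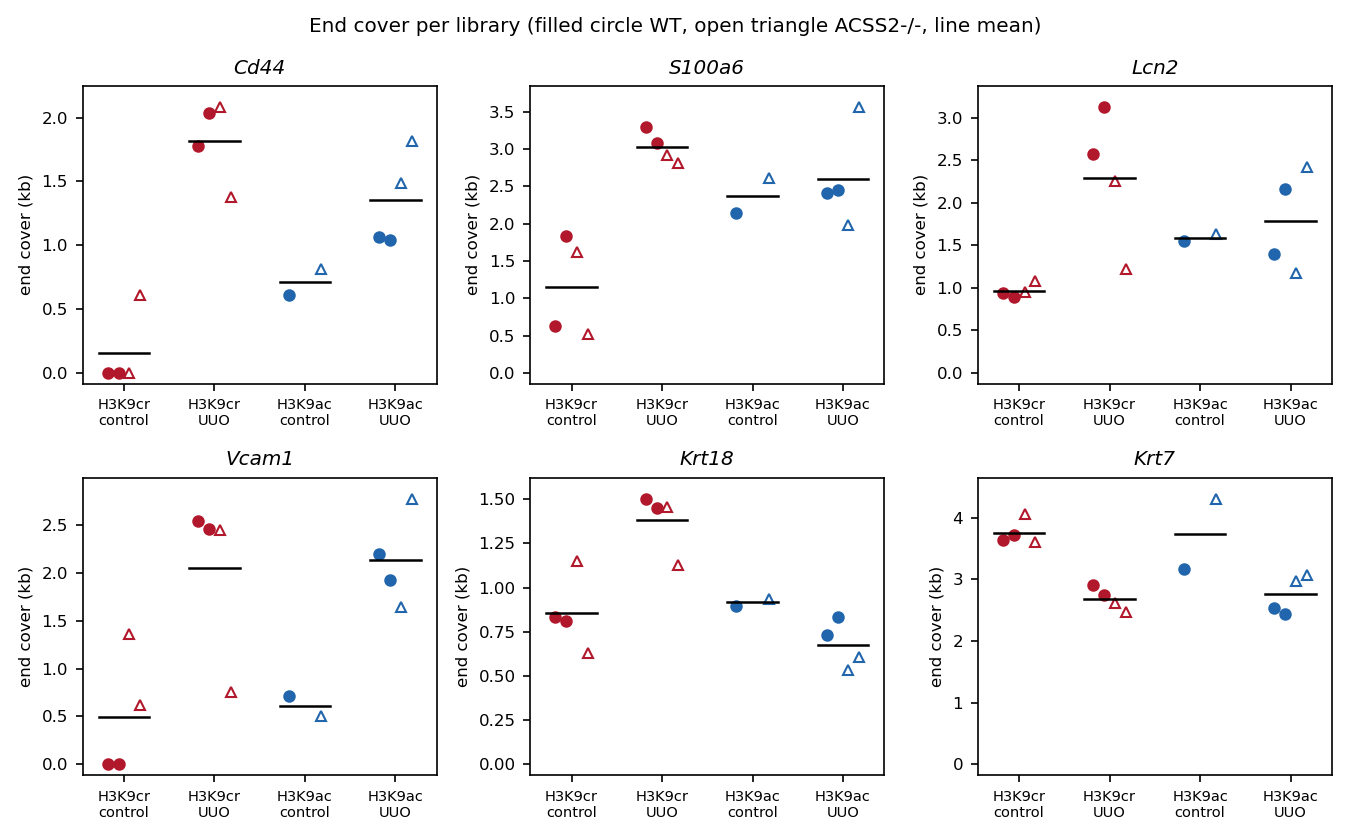
End cover (kb, vertical axis from 0) per library at the 6 genes whose H3K9cr cover differed between UUO and control, by mark and operation (horizontal axis), with filled circles for WT, open triangles for ACSS2-/- and lines for the mean. At Cd44, S100a6 and Lcn2 all H3K9cr UUO points lie above all H3K9cr control points, at Krt7 all lie below, and at Vcam1 and Krt18 single ACSS2-/- libraries overlap.

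None of the 4 transcription factors passed. Sox9, the regulator of tubule regeneration, had the largest mean difference in H3K9cr of the 33 genes, with an end cover of 0.439 and 0.723 kb in the WT control libraries and 0 and 0 kb in the ACSS2-/- control libraries, against 3.67 and 2.08 kb in the WT UUO and 3.3 and 0.572 kb in the ACSS2-/- UUO libraries. ACSS2-/- UUO 2 lay between the WT controls and the other 3 UUO libraries lay above all controls. The difference was 2.11 ± 0.793 kb (SE), adjusted p 0.115, and it passed (0.0333) once a term was added for the 6 of 14 libraries with peaks at Y-linked genes. Sox4, a SOX factor of progenitor cells, had 2.57 and 4.21 kb in the WT control libraries and 4.22 and 4.09 kb in the ACSS2-/- control libraries, against 3.02 and 2.27 kb in the WT UUO and 3.27 and 2.49 kb in the ACSS2-/- UUO libraries. Its difference was -1.01 ± 0.421 kb (SE), adjusted p 0.153, with overlapping groups. Egr1, an immediate early gene, had 3.23 and 2.88 kb in the WT control libraries and 3.42 and 3.88 kb in the ACSS2-/- control libraries, against 3.89 and 2.52 kb in the WT UUO and 3.18 and 2.71 kb in the ACSS2-/- UUO libraries. Its groups overlapped, with a difference of -0.28 ± 0.373 kb (SE), and Myc, the growth regulator, had 4.11 kb (SD 0.257, n = 4) in control and 4.28 kb (SD 0.344, n = 4) in UUO. Tnfaip2, a gene induced by tumour necrosis factor, had 3.38 and 4.78 kb in the WT control libraries and 5.16 and 5.06 kb in the ACSS2-/- control libraries, against 3.75 and 2.93 kb in the WT UUO and 4.85 and 1.94 kb in the ACSS2-/- UUO libraries, and a difference of -1.23 ± 0.631 kb (SE), adjusted p 0.245.

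The EGF receptor ligands, by which injured tubules signal to themselves and their neighbours, showed no called change in H3K9cr. Hbegf had 1.81 and 3.8 kb in the WT control libraries and 3.88 and 3.59 kb in the ACSS2-/- control libraries, against 2.51 and 2.85 kb in the WT UUO and 2.56 and 1.33 kb in the ACSS2-/- UUO libraries. The low WT control 1 lay within the UUO range, and the difference was -0.959 ± 0.482 kb (SE), adjusted p 0.235. Tgfa had 0.962 and 1.26 kb in the WT control libraries and 1.08 and 0.645 kb in the ACSS2-/- control libraries, against 1.14 and 1.08 kb in the WT UUO and 0.428 and 0.677 kb in the ACSS2-/- UUO libraries, with a difference of -0.156 ± 0.15 kb (SE). Areg, the amphiregulin gene, had no H3K9cr peak in any of the 8 libraries. Ereg, the epiregulin gene, had 0.375 kb in ACSS2-/- UUO 1 and no peak in the other 13 libraries, so it was not tested. No injury gene gained an H3K9cr peak in all 4 UUO libraries from none in control or lost one, against 0.69% and 0.773% of all tested genes, while the less strict rule of 2 UUO against 2 control libraries was met by more. In WT libraries alone 4 gained one, Krt19, Vcam1, Cd44 and Clu, and none lost one, against 4.23% and 2.29% of all genes, and in ACSS2-/- libraries alone 1 gained one, Sox9, and none lost one, against 1.32% and 3.65%.

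The same comparison was made for H3K9ac, with 4 UUO libraries and 2 controls, 1 of each genotype. H3K9ac cover rose at 1 of the 33 genes, Vcam1, and fell at 8, Krt7, Krt8, Cdh6, Areg, Tgfa, Tnfaip2, Egr1 and Gdf15. Of all tested genes 0.138% rose and 32.4% fell, and the median difference was -0.572 kb for the injury genes and -0.577 kb for all genes. The share of injury genes that fell was thus no larger than the share of all genes. Scaled to the total covered length, 8 injury genes rose and 2 fell, and the differences of Krt7 (1.48 kb), Krt8 (0.344 kb), Tnfaip2 (0.461 kb), Egr1 (0.742 kb) and Gdf15 (0.464 kb) turned above 0. Of the called genes, only Vcam1, Cdh6, Areg and Tgfa had the same direction on both scales. Areg had no H3K9ac peak in UUO and was tested only through its peaks in the 2 controls, so scaling could not turn its direction. UUO lay wholly above control at 2 genes, Vcam1 and Cd44 (0.336% of all genes), and wholly below it at 12 (40.8%), namely Krt7, Krt18, Cdh6, Prom1, Hbegf, Areg, Tgfa, Anxa3, Lgals1, S100a10, Tnfaip2 and Egr1. The count of 9 dropped to 5 without any 1 of WT control H3K9cr 1 or 2, ACSS2-/- control H3K9cr 2 or WT UUO H3K9ac 1 or 2.

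At Vcam1 the H3K9ac end cover was 0.714 kb in the WT control library and 0.51 kb in the ACSS2-/- control library, against 2.2 and 1.93 kb in the WT UUO and 1.65 and 2.77 kb in the ACSS2-/- UUO libraries. Every UUO library exceeded both controls, with a difference of 1.52 ± 0.476 kb (SE), adjusted p 0.0394. The adjusted p lay above 0.05, up to 0.0961, without any 1 of 8 libraries, which were WT control H3K9cr 1 and 2, ACSS2-/- control H3K9cr 2, the WT UUO libraries of both marks and ACSS2-/- UUO H3K9ac 2. Cd44 had 0.613 kb in the WT control library and 0.814 kb in the ACSS2-/- control library, against 1.06 and 1.04 kb in the WT UUO and 1.49 and 1.82 kb in the ACSS2-/- UUO libraries, also without overlap, and an adjusted p of 0.0775. H3K9ac at Lcn2 was 1.55 kb in the WT control library and 1.63 kb in the ACSS2-/- control library, against 1.39 and 2.17 kb in the WT UUO and 1.17 and 2.42 kb in the ACSS2-/- UUO libraries, and UUO and control overlapped. S100a6 had 2.14 kb in the WT control library and 2.61 kb in the ACSS2-/- control library, against 2.42 and 2.46 kb in the WT UUO and 1.99 and 3.56 kb in the ACSS2-/- UUO libraries, and Sox9 had 0 kb in the WT control library and 1.21 kb in the ACSS2-/- control library, against 1.06 and 1.81 kb in the WT UUO and 0.46 and 3.75 kb in the ACSS2-/- UUO libraries. Both overlapped between operations, with adjusted p of 0.775 and 0.372.

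Of the 3 tested EGF receptor ligands, 2 fell in H3K9ac, Areg and Tgfa, where 32.4% of all genes fell. Areg (gene ID 11839) had 0.348 kb in the WT control library and 0.756 kb in the ACSS2-/- control library, against 0 and 0 kb in the WT UUO and 0 and 0 kb in the ACSS2-/- UUO libraries, so it passed the filter only through its peaks in the 2 H3K9ac controls, and its calls below are a description that follows from that filter. It was the single injury gene with an H3K9ac end peak in both controls and no UUO library, against 2.62% of all genes, while 0.129% of genes and no injury gene gained one in this way. The difference was -0.552 ± 0.0763 kb (SE), adjusted p 0.00243. Tgfa had 1.34 kb in the WT control library and 1.65 kb in the ACSS2-/- control library, against 0.347 and 0 kb in the WT UUO and 0.434 and 0.473 kb in the ACSS2-/- UUO libraries, with both controls above every UUO library. Its difference was -1.18 ± 0.184 kb (SE), adjusted p 0.00366 (0.0507 with scaled libraries). Hbegf had 3.13 kb in the WT control library and 3.36 kb in the ACSS2-/- control library, against 1.33 and 1.74 kb in the WT UUO and 1.56 and 2.79 kb in the ACSS2-/- UUO libraries, again without overlap, and an adjusted p of 0.0987. The Areg promoter (chr5:91139349-91139648, plus strand) is shown because its 300 bases were under an H3K9ac peak in both controls and bare in the other 12 libraries, which for H3K9ac was the case at 539 promoters (1.64%), while 7 (0.0213%) were the reverse. Capitals mark a TATA box match that begins 31 bases before the start and an HNF1 match 239 bases before it.
Areg: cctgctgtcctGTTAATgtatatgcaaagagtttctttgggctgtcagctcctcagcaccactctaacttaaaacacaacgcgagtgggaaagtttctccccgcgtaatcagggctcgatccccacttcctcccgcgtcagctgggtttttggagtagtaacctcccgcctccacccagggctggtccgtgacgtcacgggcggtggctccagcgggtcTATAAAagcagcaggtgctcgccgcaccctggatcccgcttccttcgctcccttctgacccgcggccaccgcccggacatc

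The other falls in H3K9ac were spread over the roles. Cdh6 had 0.506 kb in the WT control library and 0.746 kb in the ACSS2-/- control library, against 0 and 0 kb in the WT UUO and 0.073 and 0 kb in the ACSS2-/- UUO libraries, a difference of -0.608 ± 0.133 kb (SE) and an adjusted p of 0.0116. Krt7 had 3.17 kb in the WT control library and 4.31 kb in the ACSS2-/- control library, against 2.54 and 2.43 kb in the WT UUO and 2.98 and 3.07 kb in the ACSS2-/- UUO libraries, with -0.983 ± 0.224 kb (SE) and an adjusted p of 0.0135. Both controls lay above every UUO library at these genes. Krt8 had 2.02 kb in the WT control library and 3.44 kb in the ACSS2-/- control library, against 1.52 and 1.58 kb in the WT UUO and 1.12 and 2.2 kb in the ACSS2-/- UUO libraries, and the ranges overlapped at ACSS2-/- UUO 2, with -1.13 ± 0.373 kb (SE), adjusted p 0.0474. Gdf15 had 2.4 kb in the WT control library and 4.68 kb in the ACSS2-/- control library, against 1.92 and 1.59 kb in the WT UUO and 1.98 and 2.68 kb in the ACSS2-/- UUO libraries, and WT control 2 lay below ACSS2-/- UUO 2, with -1.5 ± 0.321 kb (SE), adjusted p 0.0108. The high control at both genes was the ACSS2-/- library. Tnfaip2 had 4.02 kb in the WT control library and 6.27 kb in the ACSS2-/- control library, against 3.36 and 2.54 kb in the WT UUO and 2.23 and 3.23 kb in the ACSS2-/- UUO libraries, with -2.31 ± 0.772 kb (SE) and an adjusted p of 0.0493. Egr1 had 3.56 kb in the WT control library and 4.4 kb in the ACSS2-/- control library, against 2.22 and 2.87 kb in the WT UUO and 1.95 and 3.02 kb in the ACSS2-/- UUO libraries, with -1.46 ± 0.457 kb (SE) and an adjusted p of 0.0393. UUO lay wholly below control at Tnfaip2 and Egr1. The calls of Krt8, Tnfaip2 and Egr1 were each lost without any 1 of 9 to 11 of the libraries, with adjusted p up to 0.132.

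Among the genes without a call in H3K9ac, Prom1 had 2.34 kb in the WT control library and 3.35 kb in the ACSS2-/- control library, against 1.97 and 1.54 kb in the WT UUO and 2.01 and 1.72 kb in the ACSS2-/- UUO libraries, and Sox4 had 3.41 kb in the WT control library and 4.58 kb in the ACSS2-/- control library, against 3 and 2.18 kb in the WT UUO and 3.3 and 4.11 kb in the ACSS2-/- UUO libraries. Prom1 did not overlap between operations and Sox4 did. Krt18 had 0.897 kb in the WT control library and 0.938 kb in the ACSS2-/- control library, against 0.73 and 0.832 kb in the WT UUO and 0.535 and 0.605 kb in the ACSS2-/- UUO libraries, with UUO below control in this mark and a difference of -0.242 ± 0.182 kb (SE), adjusted p 0.322. Spp1 had 3.13 kb in the WT control library and 4.68 kb in the ACSS2-/- control library, against 2.49 and 3.11 kb in the WT UUO and 2.99 and 5.04 kb in the ACSS2-/- UUO libraries. Krt20 had no H3K9ac peak in any library. For the other 14 tested genes, the mean H3K9ac cover in UUO ranged from 0.0832 kb at Krt19 to 3.86 kb at Myc.

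Whether UUO moved the marks differently was asked with the interaction of mark and operation. It passed at 1 of the 33 genes, against 2.13% of all genes. Areg differed by 0.552 ± 0.0985 kb (SE), adjusted p 0.0334, and was tested only because both H3K9ac controls had a peak, the other 12 libraries being at 0. This call was not held when libraries were scaled (0.0967), with the replicate number as a block (0.0762) or with the kidney as a block by label number (0.0658), and was held with the kidney by peak name number (0.014). At an unadjusted p under 0.05 there were 7 of the 33, against 24.3% of all genes. Within UUO kidneys H3K9cr cover exceeded H3K9ac cover at 3 genes, against 7.27% of all genes, by 2.79 ± 0.262 kb (SE) at Gdf15 (adjusted p 0.00197), 1.88 ± 0.305 kb (SE) at Krt8 (0.0108) and 0.709 ± 0.148 kb (SE) at Krt18 (0.0259). With the kidney as a block, Krt18 no longer passed by label number (0.0562), and by peak name number 6 genes were higher, these 3 with Tgfa, Lgals3 and S100a10, where 2819 of all tested genes were. After scaling, 1 gene was higher and 8 were lower, against 1822 and 7913 of all 21746 genes, the median of all genes moving from 0.21 to -0.385 kb, and of the 3 only Gdf15 passed. In control kidneys Gdf15 was higher by 2.01 ± 0.321 kb (SE) (adjusted p 0.00661, 5.09% of all genes higher) and Areg lower, with a difference of -0.552 ± 0.0763 kb (SE) (adjusted p 0.00391, 9.94% of all genes lower), the latter again a description, as Areg passed the filter only through these H3K9ac peaks. With scaled cover Gdf15 no longer passed in control (0.164).

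The effect of ACSS2 deletion in obstructed kidneys was compared in 2 against 2 libraries of each mark. No injury gene passed for H3K9cr, where 0.152% of all genes did, or for H3K9ac, where 0% did. For H3K9cr the median difference between ACSS2-/- and WT was -0.277 kb over the 33 genes and -0.101 kb over all genes, with 26 genes below 0 and 6 above, and 32.9% of all genes above. With scaled libraries these medians were 0.021 and 0.0652 kb. At an unadjusted p under 0.05 there were 5 of the 33 for H3K9cr, against 6.7% of all genes, and 0 for H3K9ac, against 6.38%. The count stayed at 0 for both marks in every alternative setting and without any 1 library, in limma fits throughout.

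The ACSS2-/- UUO libraries differed from each other in H3K9cr. The summed end cover of the 35 genes was 87.6 and 78.9 kb in the WT and 84.4 and 59.6 kb in the ACSS2-/- UUO libraries. Both ACSS2-/- values lay below both WT values at 13 genes, against 23.8% of all genes, and above them at 1, Anxa1, against 7.64%. The 13 were Lcn2, Krt7, Krt8, Krt19, Krt20, Vcam1, Vim, Tgfa, Lgals1, Lgals3, S100a6, S100a11 and Gdf15. At Sox9 ACSS2-/- UUO 1 had 3.3 kb and ACSS2-/- UUO 2 had 0.572 kb, and at Vcam1 they had 2.45 and 0.752 kb. ACSS2-/- UUO 2 also had the fewest peaks of the 8 H3K9cr libraries, 27530. The differences with an unadjusted p under 0.05 were -1.11 ± 0.485 kb (SE) at Lcn2 (adjusted p 0.739), -0.51 ± 0.168 kb (SE) at Krt20 (0.462), -0.557 ± 0.213 kb (SE) at Tgfa (0.618), -0.962 ± 0.37 kb (SE) at Gdf15 (0.626) and 0.937 ± 0.356 kb (SE) at Anxa1 (0.612). At Cd44 it was -0.177 ± 0.287 kb (SE) and at Vcam1 -0.896 ± 0.55 kb (SE). Krt20 was the single gene with an end peak in both WT and no ACSS2-/- UUO library, against 1.65% of all genes, and none gained one, against 0.671%. The leukocyte list had 1 lower gene, Tyrobp, in the same comparison.

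In H3K9ac, 24 of the 33 genes were above 0, against 66.1% of all genes. ACSS2-/- lay wholly above WT at 7 genes, Krt7, Sox4, Cd44, Tgfa, S100a11, Gdf15 and Wfdc2, against 23.6% of all genes, and wholly below at 1, Krt18, against 2.29%. The median difference was 0.307 kb over the 33 genes and 0.174 kb over all genes, and -0.0087 and 0 kb after scaling. Both WT libraries and ACSS2-/- UUO 1 had peaks at 0 Y-linked genes, and ACSS2-/- UUO 2 had them at 4. Sex was therefore not balanced between the genotypes in this comparison, and its part in the differences was not tested. The H3K9ac library ACSS2-/- UUO 2 had the most peaks of its group, 24571, and had 3.75 kb at Sox9 where ACSS2-/- UUO 1 had 0.46 kb. It shares peak name number 3 and peaks at 4 Y-linked genes with H3K9cr ACSS2-/- UUO 1. Their summed end cover of the 35 genes was 77.4 and 84.4 kb. H3K9ac ACSS2-/- UUO 1 and H3K9cr ACSS2-/- UUO 2 share number 2 and 0 such genes, with 47.6 and 59.6 kb. Paired by peak name, the higher ACSS2-/- UUO library of each mark would come from the same kidney.

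**Figure D5:**
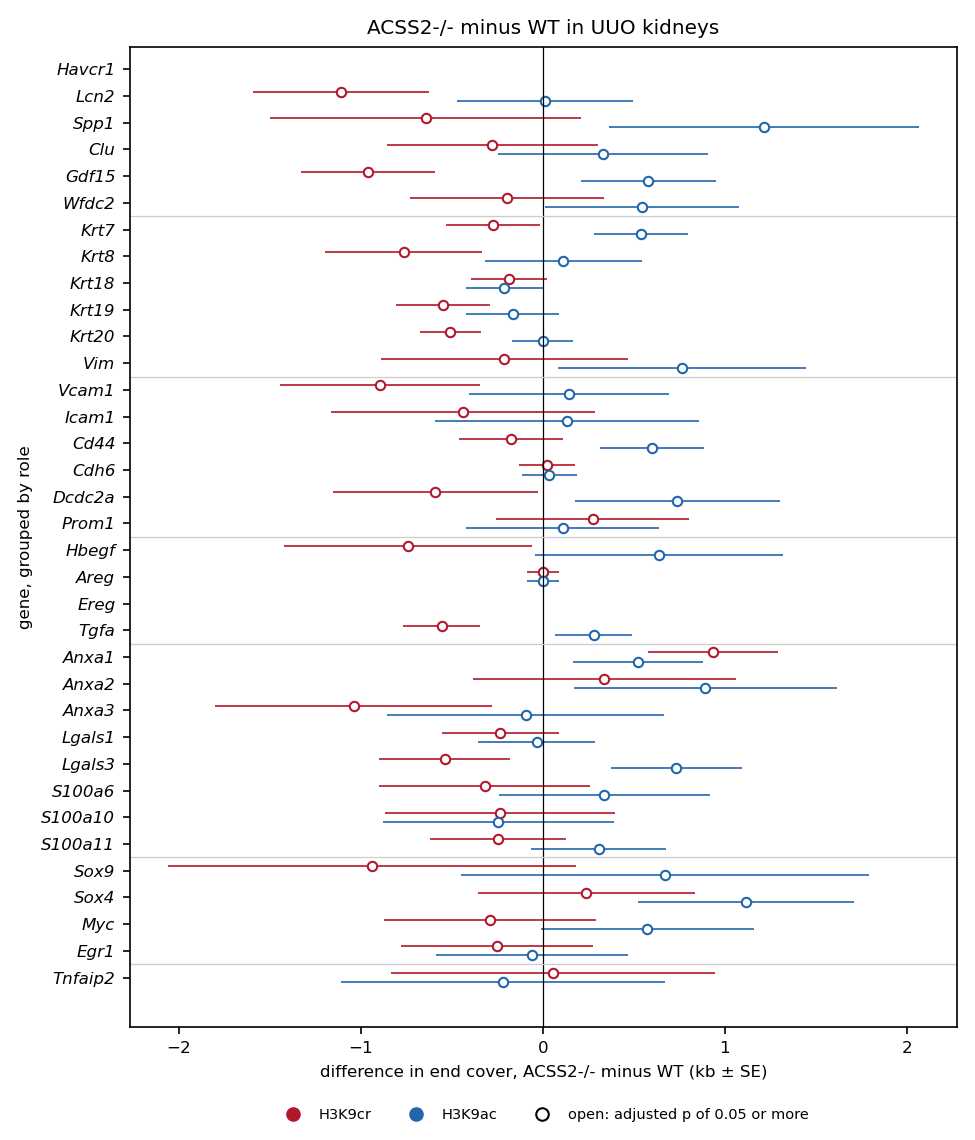
Difference in end cover between ACSS2-/- and WT UUO kidneys (kb, horizontal axis, bars are the standard error of the limma fit) for the 35 genes by role (vertical axis), red H3K9cr and blue H3K9ac, with open circles for an adjusted p of 0.05 or more. All circles are open, with 26 of the 33 H3K9cr values and 7 of the 33 H3K9ac values below 0 in unscaled cover.

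In control kidneys ACSS2-/- exceeded WT in H3K9cr at 1 of 33 genes, Prom1, against 1.4% of all genes. The difference was 2.92 ± 0.532 kb (SE), adjusted p 0.0397, with 4.7 and 6 kb in the ACSS2-/- and 3 and 1.85 kb in the WT libraries. Scaled to the total covered length it was 1.43 kb with an adjusted p of 1, and it failed without any 1 of 11 of the 14 libraries, with the highest adjusted p, 0.16, without WT control 2. The UUO effect on H3K9cr was also compared between genotypes. No injury gene passed, against 0.308% of all genes, and 4 had an unadjusted p under 0.05, Krt8, Vcam1, Prom1 and Gdf15, against 13.1% of all genes. The median of this interaction was -0.759 kb over the 33 genes and -0.37 kb over all genes, which became 0.148 and 0.204 kb after scaling. In WT mice 25 of the 33 genes had a higher mean in UUO than in control, against 47.2% of all tested genes, and in ACSS2-/- mice 12 did, against 20.6%. The medians were 0.281 kb in WT, against 0 kb for all genes, and -0.165 kb in ACSS2-/-, against -0.339 kb for all genes.

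Other genes of the same pathways were compared in the same way. Of 9 tested genes around the EGF receptor, 3 fell in H3K9cr with UUO and none rose, against 11.9% and 2.56% of all genes. These were Egf, the ligand made by the healthy distal nephron, with a difference of -3.37 ± 0.188 kb (adjusted p 7.79e-05), the receptor gene Erbb2 with -2.09 kb (0.0443) and Adam17, the protease that frees the ligands, with -0.962 kb (0.0433). In H3K9ac 7 of the 9 fell, where 32.4% of all genes did. Of 12 tested genes of the Hippo pathway and its TEAD factors, which control tubule growth, 1 fell in each mark, Amotl2. Of all genes 11.9% fell in H3K9cr and 32.4% in H3K9ac. The difference at Amotl2 was -4.51 ± 0.596 kb in H3K9cr (adjusted p 0.00206) and -3.35 kb in H3K9ac (0.0116). Of 9 tested partners of the adhesion genes, 1 rose in H3K9cr, against 2.56% of all genes, and none passed in H3K9ac. The gene was Itga4, the integrin chain by which leukocytes bind VCAM-1, with a difference of 1.75 ± 0.312 kb (adjusted p 0.00744). None of these lists had a called gene between ACSS2-/- and WT in UUO kidneys in either mark.

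The promoter sequences were searched on both strands for the letters of 7 motifs in the 30 RefSeq windows found for 24 of the genes. AP-1 (TGANTCA) matched 5 of the 30 windows, at Havcr1, Anxa2, Prom1 and S100a11, against 7.81% of all 32851 windows. TEAD (GGAATG) matched 4, at Krt20, Sox4, Anxa1 and Gdf15, against 14.7%, and NF-kB 5, at Krt18, Vim, Lgals3, Tgfa and Tnfaip2, against 8.46%. A TATA box (TATAAA) was found in 8, against 13.6%, and HNF1 (GTTAAT) in 5, against 7.1%, while neither the SRF box (1.63% of all windows) nor ETS (CCGGAAGT, 3.89%) was found in any. The SRF box can contain the letters of the TATA box, and the NF-kB motif those of TEAD. The median GC content was 57.5% over the members' windows and 52.7% over all. Of the genes whose H3K9cr end cover rose, Lcn2, Cd44 and S100a6 had none of these letters in their windows. Krt18 had the NF-kB match, in a window over which H3K9cr cover did not rise. No window was available here for Vcam1. A match describes the letters and not a bound site.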

How the data were processed

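H3K9cr and H3K9ac were mapped by ChIP-seq in 14 mouse kidney libraries. Per the labels and methods, the authors aligned reads with Bowtie2 to mm10, removed reads of low mapping quality, organelle reads and duplicates, called peaks per library with MACS2 and annotated them with ChIPseeker. Tool versions and any input control used for peak calling are not given in the sources used here. The deposited lists hold peak positions with no score, signal or read count, so the count test of the methods could not be run and depth is unknown.

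Groups and replicates came from the labels. Bases under peaks within 3 kb of either gene end were computed for 49943 RefSeq genes of GRCm38.p6 (NCBI), with at least 1 bp of overlap. Genes covered in at least 2 libraries were fitted with limma 3.58.1 (R 4.3.3) as group means over all 14 libraries, with a mean-variance trend, on the linear kb scale, and Benjamini-Hochberg adjustment over all tested genes. Peak counts and bases of the genes were checked against bedtools 2.31.1, and 0 of 980 values differed. The fit was tested on simulated data. Python 3.11.15, numpy 2.4.6, pandas 2.3.3 and matplotlib 3.10.9 were used.

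The genes and lists were chosen with earlier results of these data known. Values in every library were given for genes called in any comparison, for the 5 largest rises and 5 largest falls of H3K9cr, and for Havcr1, Lcn2, Krt20, Vcam1, Sox9 and Spp1. Promoter sequences were RefSeq windows from 250 bases before to 50 after a start, found for 24 of the 35 genes. Alternatives were a 1 kb window, gene bodies, start sites only, a log2 scale, scaling to total covered length, equal numbers of peaks (15988 each), the longest 50% of peaks, other filters (none, or 4 libraries), protein-coding genes only, 1 mark only, a replicate block, a Y-linked term, 1 genotype only, and leaving out each library. A fit without libraries whose peak names disagree with the label, a presence rule on promoter windows, and the kidney as a block (limma duplicateCorrelation) by label number and by peak name number, since the study describes both marks in the same samples, were added after seeing the data.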

Additional observations from a re-analysis of the deposited data

Results flagged for a closer look

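The effect of UUO at Areg differed between the marks in the test of the interaction of mark and operation, by 0.552 ± 0.0985 kb (SE, adjusted p 0.0334, limma). Areg was tested only because both H3K9ac controls had a peak, so this call follows from the filter and is a description. H3K9ac covered 0.348 and 0.756 kb of its ends in the 2 control libraries and 0 kb in the 4 UUO libraries, and H3K9cr 0 kb in all 8 libraries. The adjusted p ranged from 2.77e-09 to 0.0967 over the alternative settings, and reached 0.0954 when single libraries were left out. Each H3K9ac control group has 1 library, so the peak has no replicate within a genotype.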

How the results depend on the processing

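Of 25 results for single genes, 455 values under alternatives kept direction and side of the threshold, 185 kept the direction and lost the call, 1 gained a call and 10 turned. Those that turned were, scaled to total covered length, Krt7 (1.484 kb), Krt8 (0.3436), Tnfaip2 (0.4611), Egr1 (0.7424) and Gdf15 (0.4639) for H3K9ac in UUO and Spp1 (0.7069) for H3K9cr, and Krt8 over gene bodies (-0.0647) and Krt18 with equal numbers of peaks (-0.178) for H3K9cr against H3K9ac in UUO. Leaving out single libraries gave -0.0653 kb (without WT control H3K9cr 2) to 0.1913 kb for Krt20 and -1.1407 to 0.0028 kb (without WT UUO H3K9cr 2) for Spp1 in H3K9cr. The causes were not tested.

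For H3K9cr in UUO, the 6 called genes became 3 with the longest 50% of peaks, 2 without a filter, 10 with a Y-linked term, 2 with libraries whose peak names match, and 9, all higher, when scaled. For H3K9ac the 9 became 4 in a 1 kb window, over gene bodies or with equal numbers of peaks. They became 3 with the longest 50% or 1 mark only, and 5 without a filter or with the replicate block. When scaled there were 10, most of them higher in UUO, while most of the 9 were lower. The single ACSS2-/- control gene became 0 under the 1 kb window, start site, log2, scaled, equal number, longest 50%, no filter, protein-coding, 1 mark, replicate block and matching-name settings. The 3 genes higher in H3K9cr than in H3K9ac after UUO became 0 over gene bodies and 1 with equal numbers. They became 5 with a filter of 4 libraries or a Y-linked term. When scaled, 9 genes passed in either direction, all but 1 of them lower in H3K9cr. The 2 in control became 1 when scaled, with the longest 50% or with a filter of 4, and 4 with a Y-linked term. The interaction of mark and operation went from 1 to 0 when scaled, with equal numbers, the longest 50%, a filter of 4, protein-coding genes or the block, and that of genotype and operation from 0 to 1 over gene bodies. Genes gaining or losing all H3K9cr end peaks with UUO went from 0 to 1 in a 1 kb window, gene bodies, start sites, promoter windows, the longest 50% and ACSS2-/- alone, 2 with equal numbers and 4 in WT alone. For H3K9ac they went from 1 to 2 with equal numbers and 3 in WT alone, and between genotypes from 1 to 0 in a 1 kb window or gene bodies and 2 in promoter windows. Leaving out single libraries gave 0 to 1, 1 to 2 and 1 to 3 for these presence counts, 2 to 7 for H3K9cr and 5 to 11 for H3K9ac with UUO, 0 to 0 for ACSS2-/- in UUO in both marks and for the genotype interaction, 0 to 1 in control, 1 to 6 and 2 to 3 between marks in UUO and control, and 0 to 4 for the mark interaction. Between marks in UUO the lowest was without WT UUO H3K9ac 1 and the highest without ACSS2-/- UUO H3K9ac 2. Leaving out an H3K9ac control library emptied its group, so the comparisons that need it have no such value.

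Libraries with the same replicate number did not deviate together. Their deviations correlated between -0.295 and 0.186 over genes, lowest between the marks in ACSS2-/- UUO kidneys, where the peak names cross the numbers. The replicate block left 5 of 6 H3K9cr and 5 of 9 H3K9ac calls with UUO and 0 between genotypes in UUO. The study describes both marks in the same samples. With the kidney as a block the correlation within a kidney was -0.276 by label number and 0.3 by peak name number. The label number joins UUO libraries that differ in Y-linked peaks, as given above, so that block does not describe kidneys there. The interaction of mark and operation then had 0 and 4 calls, and H3K9cr against H3K9ac in UUO 2 and 6, and no other count of calls changed. Depth behind the peak lists is unknown.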
